A study of Homo sapiens with 6 samples.

Results

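The genes described here are 8 mouse genes of the response to endoplasmic reticulum (ER) stress and of the ATF4 pathway: 2 ER chaperones (Hspa5 and Hsp90b1), 3 transcription factors (Xbp1, Atf4 and Ddit3) and 3 targets downstream of ATF4 or CHOP (Trib3, Asns and Chac1). They were taken by mouse Ensembl ID from a table of 77134 rows, and all 8 were present.

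The unfolded protein response is the set of signals by which a cell adjusts to misfolded protein in the ER. Its sensors act in 3 branches: ATF6 and the IRE1-spliced form of XBP1 raise ER chaperones, and the kinase PERK, by phosphorylating eIF2alpha, favours translation of the transcription factor ATF4. Amino acid shortage and other stresses reach ATF4 through further eIF2alpha kinases, and this shared route is called the integrated stress response. Tumours with poor blood supply are a known setting for both responses, in cancer cells and in the host cells around them.

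Each of 6 tumours gave 1 RNA-seq library. The tumours grew from 5000000 cells of A549, a human lung adenocarcinoma line, placed under the skin of BALB/c nude mice, a strain without a thymus that lacks mature T cells but keeps B cells, macrophages and other host cells. In the 3 vector control tumours the A549 cells carried the lentiviral vector pLV-CMV-EGFP-Neo, and in the 3 HIF1A-AS3 overexpression tumours they carried pLV-CMV-HIF1A-AS3-EGFP-Neo, in which the viral CMV promoter drives this antisense RNA of the human HIF1A locus. Both groups therefore shared the EGFP and Neo sequences, and the labels used here state neither the age of the mice nor whether a stable line was 1 clone. Whether each tumour had a mouse of its own is not stated. P-values reflect tumour-to-tumour spread and treat the tumours as independent, which would not hold if tumours shared a mouse.

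The rows are mouse genes, so the values describe RNA of host cells in the tumour together with any human RNA that was counted on a mouse row. How much of each value came from human RNA was not tested. In bulk tissue, fewer cells of a type and less RNA per cell cannot be told apart. The rows carry IDs without names, and the name tables used here are human. Host cell type markers, which would show what the tissue held, and the wider lists of ER stress and ATF4 genes were therefore not analysed here, and HIF1A-AS3 itself, a human RNA, was not analysed here either.

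Library totals ranged from 4167784 to 4769157 estimated counts. Values are CPM (counts per 1000000), scaled by library size and by the TMM factor, which corrects for differences in RNA composition. That factor was 0.742 in overexpression replicate 1 and 1.02 to 1.10 in the other libraries. Overexpression replicate 1 also had the lowest mean Pearson's r with the others across genes, 0.906 against 0.922 to 0.939, and detected the fewest genes, 17406 against 18796 to 19063. Its CPM values are therefore higher, relative to its share of total counts, than those of any other library, and CPM computed from library totals alone, called CPM by library total, are given beside CPM where this matters.

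No member passed the threshold between overexpression and control tumours (edgeR quasi-likelihood test, Benjamini-Hochberg adjusted p below 0.05 over 12637 genes), where 0.0158% of all genes tested passed. Members that passed the filter on low counts numbered 7 of 8, and Chac1 did not. At an unadjusted p below 0.05 there was 1 member, Ddit3, beside 6.29% of all genes tested. DESeq2 and limma-voom on the same genes also called 0 members after adjustment, beside 0.222% and 0.0554% of genes, and 1 member, Ddit3, at an unadjusted p below 0.05, beside 6.89% and 5.59%. The 2 groups did not overlap in CPM for 2 members, Ddit3 and Trib3, both higher in overexpression tumours, beside 13.2% of all genes tested in either direction and 6.79% in that one. Trib3 entered the test only through the overexpression libraries, as described with its values, so these counts say little about the set. With no filter, where all 8 could be fitted, 7 had a log2 fold change above 0, beside 51.1% of all rows, and the median of the 8 was 0.35 against 0.02 over all rows. Of these 7, Hspa5 and Hsp90b1 turned negative with library totals.

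**Figure D1:**
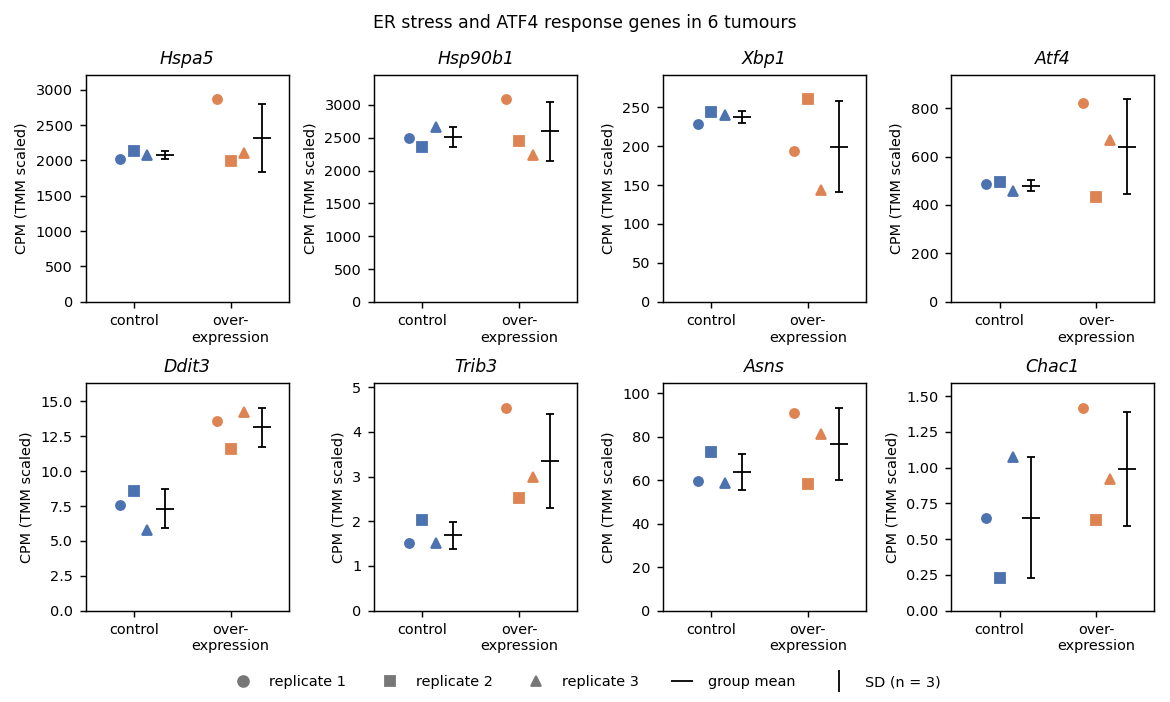
CPM of each member (vertical axis, from 0) in the 3 control and 3 overexpression libraries, with marker shape for the replicate, and the group mean ± SD (n = 3) to the right of the points. Ddit3 and Trib3 are the 2 members whose groups do not overlap, and in Xbp1, Atf4 and Asns overexpression replicate 2 lies with or beyond the controls on the side away from replicates 1 and 3.

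Hspa5 (ENSMUSG00000026864) encodes BiP, the main Hsp70 chaperone of the ER lumen, which holds the ER stress sensors inactive when bound to them. It measured 2021, 2139 and 2080 CPM in controls 1, 2 and 3, and 2870, 1991 and 2104 CPM in overexpression replicates 1, 2 and 3. The groups overlapped: overexpression replicate 1 stood above all other libraries, and the other two were close to the controls. The mean was 2080 ± 58.8 CPM in controls and 2322 ± 479 CPM with HIF1A-AS3 overexpression (SD, n = 3 per group), and edgeR put the log2 fold change at 0.16 (standard error 0.25, adjusted p 0.88). Its 95% interval reached from 0.745-fold to 1.67-fold.

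The order of the groups for Hspa5 turned with the scaling. In CPM by library total, the gene stood at 2206, 2269 and 2271 in the controls and at 2119, 2029 and 2141 in overexpression replicates 1, 2 and 3. On this scale every overexpression library lay below every control. Groups were apart, in either direction, in 14.9% of all genes tested on that scale. With library totals in place of TMM, edgeR gave a log2 fold change of -0.10 (adjusted p 0.86), and without overexpression replicate 1 it gave -0.055 (adjusted p 0.999). The median log2 fold change over all genes tested was -0.21 with library totals, so Hspa5 fell by less than the median gene on that scale. A direction for Hspa5 could thus not be assigned.

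Hsp90b1 (ENSMUSG00000020048) encodes GRP94, the Hsp90 chaperone of the ER, whose clients include integrins and Toll-like receptors. It measured 2499, 2356 and 2665 CPM in controls 1, 2 and 3, and 3091, 2456 and 2236 CPM in overexpression replicates 1, 2 and 3. The highest and the lowest of the 6 values both belonged to overexpression tumours. Means were 2506 ± 155 and 2595 ± 444 CPM (SD, n = 3 per group), with a log2 fold change of 0.05 (edgeR, standard error 0.25, adjusted p 0.97). With library totals the log2 fold change was -0.20, and without overexpression replicate 1 it was -0.13, again with no call. The number of Hspa5 counts per 100 Hsp90b1 counts, which no scaling can alter, was 80.9, 90.8 and 78.1 in the controls and 92.9, 81.1 and 94.1 in overexpression replicates 1, 2 and 3. These ranges overlapped, at 83.2 ± 6.69 for controls and 89.3 ± 7.19 with overexpression (SD, n = 3 per group).

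Xbp1 (ENSMUSG00000020484) encodes the transcription factor whose mRNA is spliced by IRE1, and the gene-level counts do not separate the spliced from the unspliced form. It measured 229, 244 and 240 CPM in controls 1, 2 and 3, and 194, 261 and 144 CPM in overexpression replicates 1, 2 and 3. Overexpression replicates 1 and 3 lay below all controls, whereas replicate 2 lay above them, so the groups overlapped. Means were 238 ± 7.71 CPM in controls and 199 ± 58.8 CPM with HIF1A-AS3 overexpression (SD, n = 3 per group). EdgeR put the log2 fold change at -0.25 (standard error 0.23, adjusted p 0.80). CPM by library total were 250.0, 259 and 262 in the controls and 143, 266 and 146 in overexpression replicates 1, 2 and 3. On this scale too, replicates 1 and 3 lay below all controls and replicate 2 above them.

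Atf4 (ENSMUSG00000042406) encodes the factor at the centre of the integrated stress response, which is controlled mainly through translation of its mRNA, so that its transcript level is only part of its activity. It measured 488, 496 and 456 CPM in controls 1, 2 and 3, and 823, 432 and 668 CPM in overexpression replicates 1, 2 and 3. Here overexpression replicates 1 and 3 lay above all controls and replicate 2 below them, the reverse of Xbp1. Means were 480.1 ± 21.1 and 641 ± 197 CPM (SD, n = 3 per group), and edgeR put the log2 fold change at 0.42 (standard error 0.27, adjusted p 0.72). The 95% interval ran from 0.872-fold to 2.04-fold. In CPM by library total, overexpression replicates 1, 2 and 3 stood at 608, 440 and 680 beside 532, 526 and 498 in the controls, so replicates 1 and 3 lay above the controls on that scale too.

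The proportion of Xbp1 to Atf4 within a library was spread more widely over the tumours than either gene. There were 47.0, 49.1 and 52.6 Xbp1 counts per 100 Atf4 counts in controls 1, 2 and 3, and 23.6, 60.4 and 21.5 in overexpression replicates 1, 2 and 3. The controls were alike, at 49.6 ± 2.87, while the overexpression tumours spread over 35.2 ± 21.9 (SD, n = 3 per group), with replicates 1 and 3 far below and replicate 2 above the controls. This ratio was chosen after its values were seen and is given without a test. By contrast Asns counts per 100 Atf4 counts were 12.2, 14.7 and 12.8 in the controls and 11.0, 13.5 and 12.2 in overexpression replicates 1, 2 and 3, overlapping throughout.

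**Figure D2:**
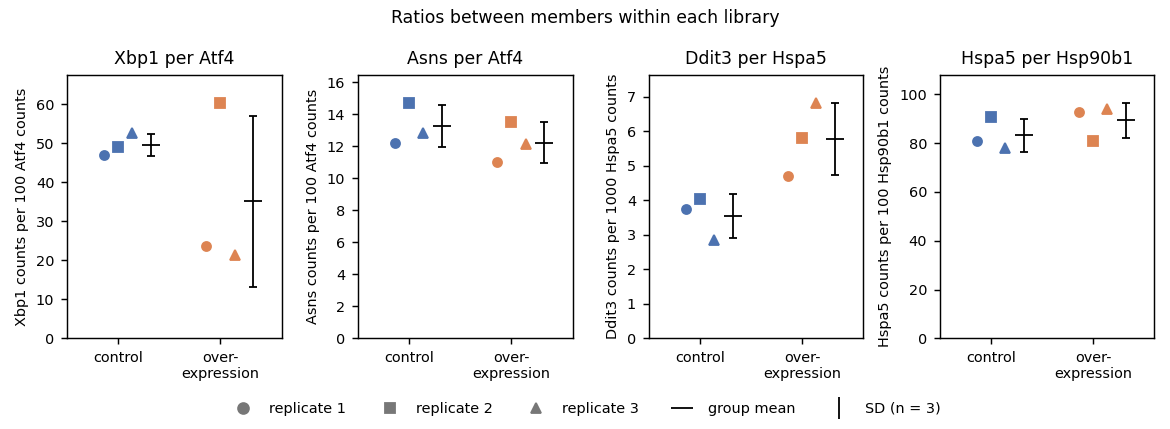
Ratios of estimated counts between 2 members in each library (vertical axes, from 0, in counts of the first gene per 100 or 1000 counts of the second), with group mean ± SD (n = 3). Xbp1 per Atf4 is 21.5 and 23.6 in 2 overexpression libraries and 47.0 or more in the other 4, whereas Asns per Atf4 overlaps between groups, and Ddit3 per Hspa5 does not overlap although Ddit3 per Atf4, given in the text, does.

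Ddit3 (ENSMUSG00000025408) encodes CHOP, a C/EBP-family factor induced by ATF4 and linked to cell death under lasting ER stress. Its estimated counts were 35.0, 38.2 and 27.4 in controls 1, 2 and 3, and 47.5, 54.7 and 62.3 in overexpression replicates 1, 2 and 3. In CPM these were 7.57, 8.60 and 5.80 in the controls and 13.6, 11.6 and 14.3 in the overexpression tumours. Every overexpression library lay above every control, including replicate 2, which lay below the controls for Atf4. Means were 7.32 ± 1.41 and 13.2 ± 1.40 CPM (SD, n = 3 per group), and the log2 fold change was 0.84 (standard error 0.25). The unadjusted p was 0.0095 and the adjusted p 0.70 in edgeR, so the difference did not pass the threshold over all genes, and the adjusted p ranged from 0.14 to 1.00 over 15 alternatives. The interval for this gene alone was 1.21-fold to 2.67-fold, without adjustment for testing many genes.

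Ddit3 was compared on 3 further scales that do not use TMM. The groups were apart on 2 of them, which are not independent of each other. In CPM by library total, it was 8.26, 9.16 and 6.43 in the controls and 9.97, 11.7 and 14.6 in overexpression replicates 1, 2 and 3, without overlap. Groups were apart, in either direction, in 14.9% of all genes tested on that scale, and the share that was higher was not counted. Ddit3 counts per 1000 Hspa5 counts were 3.74, 4.04 and 2.83 in the controls and 4.70, 5.79 and 6.81 in overexpression replicates 1, 2 and 3, which did not overlap either. By library total every overexpression library lay below every control in Hspa5, so this ratio had to separate once Ddit3 did. Ddit3 counts per 100 Atf4 counts were 1.55, 1.74 and 1.29 in the controls and 1.64, 2.67 and 2.14 in overexpression replicates 1, 2 and 3, and here overexpression replicate 1 lay below control 2, so the groups overlapped. The log2 fold change with library totals was 0.61, with an unadjusted p of 0.066 in edgeR. With so few counts per library, counting error alone amounts to about 15.0% of a library's value, against a spread of 19.3% among controls and 10.6% among overexpression tumours.

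Trib3 (ENSMUSG00000032715) encodes a pseudokinase induced by ATF4 and CHOP that restrains AKT and ATF4 activity. It had 7, 9 and 7 counts in controls 1, 2 and 3, and 16, 12 and 13 in overexpression replicates 1, 2 and 3. The sums were 23 counts in controls (exact 95% Poisson interval 14.6 to 34.5) and 41 in overexpression tumours (29.4 to 55.6), where the intervals cover counting error only. They overlap in part, although no overexpression library reached down to a control. Levels were 1.68 ± 0.304 and 3.35 ± 1.06 CPM (SD, n = 3 per group), and the log2 fold change in edgeR was 0.97 (standard error 0.43, unadjusted p 0.056, adjusted p 0.70).

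Trib3 passed the filter on low counts because all 3 overexpression libraries reached the minimum and 0 of the 3 controls did. A gene let in on those terms had to be higher in overexpression tumours, so its fold change is a description. In CPM by library total, it stood at 1.65, 2.16 and 1.64 in the controls and at 3.35, 2.58 and 3.04 in overexpression replicates 1, 2 and 3. The filter minimum of 2.34 CPM was applied on this same scale, so the groups had to be apart on it. Their separation is thus no further check, although 14.9% of all genes tested were apart there in either direction. Without overexpression replicate 1, its highest library in CPM, the log2 fold change fell to 0.67 (adjusted p 0.999).

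Asns (ENSMUSG00000029752) encodes asparagine synthetase, an ATF4 target that makes asparagine from aspartate and glutamine. It measured 59.5, 73.1 and 58.4 CPM in controls 1, 2 and 3, and 90.6, 58.4 and 81.2 CPM in overexpression replicates 1, 2 and 3. As for Atf4, overexpression replicates 1 and 3 were the 2 highest libraries and replicate 2 was the lowest, level with control 3. Means were 63.7 ± 8.16 and 76.7 ± 16.6 CPM (SD, n = 3 per group), with a log2 fold change of 0.27 (edgeR, standard error 0.21, adjusted p 0.76). In CPM by library total, overexpression replicate 1 moved to 66.9, inside the control range of 63.8 to 77.4, and the log2 fold change with library totals was 0.02.

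Chac1 (ENSMUSG00000027313) encodes a glutathione-degrading enzyme downstream of ATF4 and CHOP. It was close to the limit of detection, with 3, 1 and 5 counts in controls 1, 2 and 3, and 5, 3 and 4 in overexpression replicates 1, 2 and 3. The sums were 9 counts in controls (exact 95% Poisson interval 4.12 to 17.1) and 12 in overexpression tumours (6.20 to 21.0), and no difference between the groups was detected. A count of 0 in these libraries would allow 0.632 to 0.852 CPM, and Chac1 measured 0.226 to 1.42 CPM. With no filter on low counts edgeR gave a log2 fold change of 0.56 (standard error 0.97, adjusted p 0.88).

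**Figure D3:**
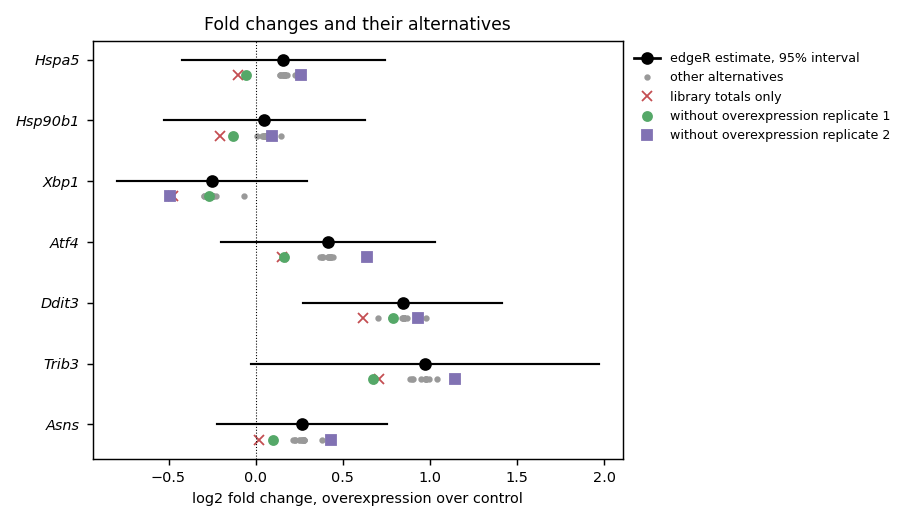
Log2 fold change of overexpression over control (horizontal axis) for the 7 members tested, as edgeR estimates with 95% intervals (black) and, just below each, the estimates under the alternatives. The interval of Ddit3 lies above 0, from 0.27 to 1.41, and those of the other 6 members include 0, while Hspa5 and Hsp90b1 cross to negative values with library totals and without overexpression replicate 1.

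Single overexpression libraries moved the estimates of several members. Replicate 2 held the lowest value of the 6 libraries for Hspa5, Atf4 and Asns, in Asns level with control 3, and the highest for Xbp1. Without it, the log2 fold changes in edgeR were -0.49 for Xbp1, 0.64 for Atf4, 0.93 for Ddit3 and 0.43 for Asns. Unadjusted p values were then 0.041, 0.019, 0.0096 and 0.042, so 4 members lay below 0.05, beside 20.5% of all genes tested in that fit. Adjusted p values were 0.22, 0.17, 0.14 and 0.23, and none passed the threshold. Leaving out overexpression replicate 3 brought the log2 fold change of Xbp1 to -0.07, since its lowest value was in that library. Leaving out overexpression replicate 1 brought that of Atf4 to 0.16, that of Asns to 0.10 and that of Trib3 to 0.67, and turned those of Hspa5 and Hsp90b1 negative.

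Overexpression tumours differed more among themselves than controls did in 6 of the 8 members by the coefficient of variation of CPM. This was also the case for 76.3% of all genes tested, so the members did as most genes did. For Hspa5 the coefficient was 2.83% in controls and 20.6% in overexpression tumours, for Xbp1 3.25% and 29.5%, and for Atf4 4.40% and 30.8%. Counting error alone would give about 1.02%, 3.22% and 2.04% for these 3 genes, so the controls differed in Xbp1 by about as much as counting error. Ddit3 and Chac1 went the other way. In CPM by library total, 5 of 8 members and 82% of all genes tested varied more among overexpression tumours.

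Whether the members moved together was examined over all 28 pairs, by correlating log2 CPM over the 6 libraries. Pearson's r was positive for 22 pairs and negative for 6, and all 6 negative pairs included Xbp1. All members of a library share its scaling factor, and with library totals 14 pairs were positive and 14 negative. An unadjusted exact permutation p below 0.05 was found for 6 pairs, and 1 pair, Atf4 with Asns, passed after adjustment over the 28.

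Atf4 and Asns had an r of 0.936 (two-sided exact permutation p = 0.0014, adjusted p = 0.039) and ranked the 6 libraries in the same order, with a Spearman's rho of 1.00 (exact permutation p = 0.0028, adjusted p = 0.078). Overexpression replicates 1 and 3 lay apart from the other 4 libraries in Atf4, and without these 2 the r over the rest was 0.679. The relation rests largely on these 2 libraries and could not be tested within either cluster. With library totals r was 0.759, which did not pass (exact permutation, adjusted p = 0.43).

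Ddit3 and Trib3 had an r of 0.894 (two-sided exact permutation p = 0.021, adjusted p = 0.19) and a Spearman's rho of 0.943 (exact permutation p = 0.017, adjusted p = 0.23). Since both genes separated the groups, part of this r is the group difference, and after the group means were subtracted it was 0.546. Without the 2 libraries farthest from the median of Ddit3, and with group means left in, r was 0.949. Those libraries were control 3 and overexpression replicate 3, so the group difference remained in this r. Xbp1 and Atf4 had an r of -0.748 (exact permutation p = 0.057, adjusted p = 0.23) and a Spearman's rho of -0.771 (exact permutation p = 0.10, adjusted p = 0.48). Their r was -0.881 with library totals and -0.650 after the group means were subtracted. Without the 2 libraries farthest from the median of Xbp1, overexpression replicates 1 and 3, r was -0.739. That left the controls and overexpression replicate 2, which stood apart from the controls in both genes.

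**Figure D4:**
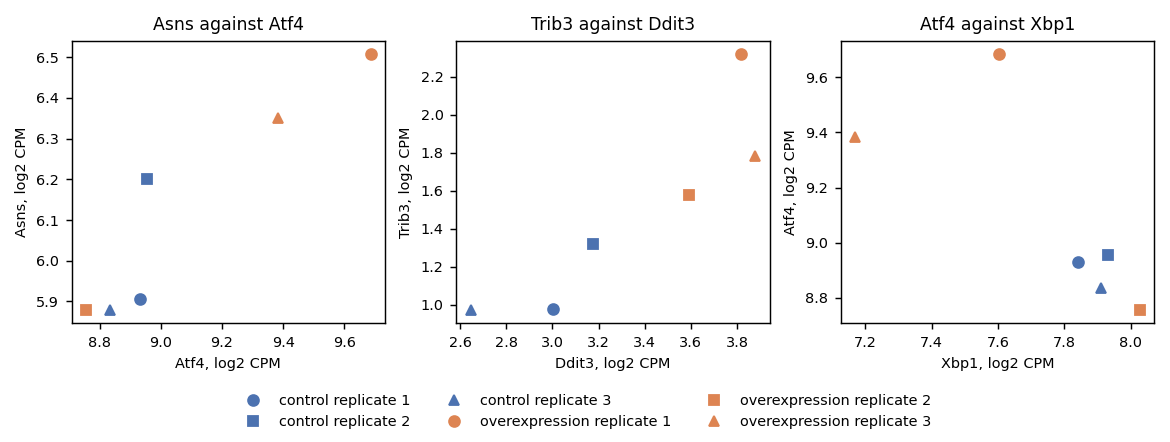
Log2 CPM of Asns against Atf4, Trib3 against Ddit3 and Atf4 against Xbp1 in the 6 libraries (controls blue, overexpression orange, marker shape for the replicate). Overexpression replicates 1 and 3 stand high in Atf4 and Asns and low in Xbp1. Replicate 2 stands below the controls in Atf4, above them in Xbp1 and level with control 3 in Asns. All 3 overexpression libraries stand above the controls in Ddit3 and Trib3.

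Set against the chaperones within the same library, the average of Ddit3, Trib3, Asns and Chac1 lay higher in each overexpression tumour than in any control. The mean log2 CPM of these 4 genes minus that of Hspa5 and Hsp90b1 was -8.63, -8.60 and -8.67 in controls 1, 2 and 3, and -8.15, -8.32 and -7.96 in overexpression replicates 1, 2 and 3. Averaged by group it was -8.63 ± 0.04 and -8.14 ± 0.18 (SD, n = 3 per group), a difference of 0.49 on the log2 scale. Without Chac1 it was -7.81 ± 0.24 and -7.28 ± 0.18, a difference of 0.54. The small SD among controls thus depended on including Chac1, which was close to the limit of detection. Ddit3 and Trib3, each already apart between the groups, enter this average, so its separation was in part fixed by them. How often averages of other genes separate in this way was not tested. Without Trib3 the difference was 0.41. With Asns and Chac1 alone it was 0.25, and the groups overlapped, at -8.11, -8.31 and -7.95 in the controls and -7.83, -8.11 and -7.68 in overexpression replicates 1, 2 and 3. This is a description of genes chosen with earlier results of these data known, given without a test. Only its change between libraries is meaningful, because counts are not per length.

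The estimates of 6 members were not whole in every library, as happens where an estimator divides reads between rows. Trib3 and Chac1 were whole, to within 0.001, in all 6 libraries. Asns was whole in 2 libraries, Ddit3 in 1, and Hspa5, Hsp90b1, Xbp1 and Atf4 in 0. Among all genes tested 22.2% were whole in every library. Which rows shared reads with a member was not analysed here.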

How the data were processed

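The authors deposited unnormalized estimated counts per mouse gene for each tumour, per the file header. The table's name points to salmon, and its version and annotation are not given in the labels. The submitters' processing notes name the trimmer Trimmomatic 0.39, the aligner HISAT2 2.2.1 and the counter featureCounts 2.0.6, the packages edgeR and DESeq2, and the mouse build mm10, without saying which step made the table. All 6 columns were matched to tumours by name.

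Estimated counts were rounded and analysed in R 4.3.3 with edgeR 4.0.16: filterByExpr at its defaults (minimum count 10, here 2.34 CPM in at least 3 libraries), which kept 12637 genes with 99.5% of counts, TMM scaling, and a robust quasi-likelihood test of group. P-values were adjusted over all genes tested. The standard error was the size of the log2 fold change over the root of its F statistic, and a prior count of 2 entered log2 CPM. Correlations used exact permutations. DESeq2 1.42.0, limma-voom (limma 3.58.1), other scalings and filters, a block by replicate number and leaving out each library were alternatives. The pipeline was tested on simulated data.

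Members and lists were chosen with earlier results of these data known. All 8 members are named; lists by symbol, and the rule naming genes of like pattern, needed names and were not applied. The most similar libraries, controls 1 and 3, still differed by 2.06 times what sampling gives in the median gene, so none was a duplicate.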

Additional observations from a re-analysis of the deposited data

How the results depend on the processing

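No member passed the threshold in any of 15 alternatives (edgeR, DESeq2 or limma-voom) in which it was tested. Chac1 was tested in only 1 of them and Trib3 in 14. At an unadjusted p below 0.05 the count of members was 0 with library totals, 4 without overexpression replicate 2 and 1 in every other. The number of genes past the threshold, 2 in edgeR, was 28 with DESeq2, 7 with limma-voom, 4 with library totals, 14 without the low-count filter, 0 under a replicate block (414 genes at an unadjusted p below 0.05) and 0 to 14 with 1 library left out. Library totals moved the median over all genes, in log2, from 0.01 to -0.21; on that scale Hspa5 was at -0.10 and Hsp90b1 at -0.20, and with 1 library left out they ranged from -0.055 to 0.26 and from -0.13 to 0.15, both lowest without overexpression replicate 1. Xbp1, Atf4, Ddit3 and Asns kept their direction in every alternative, and Ddit3 ranged from 0.61 to 0.98. Trib3, whose direction was fixed by how it passed the filter, ranged from 0.67 to 1.14, and a mean of at least 5 CPM removes it. Of the 28 pairs, 1 passed in the correlation test, and 0 after subtracting group means (Atf4 with Asns at r = 0.914) or with library totals; r of Atf4 with Trib3, 0.836, was -0.478 without overexpression replicates 1 and 3. The difference between groups in ATF4 targets relative to chaperones, 0.49, was 0.40 to 0.57 with 1 library left out and 0.25 without Ddit3 and Trib3, alternatives chosen after seeing the data. In the paired fit (replicate block) the log2 fold change of Ddit3 was 0.85 (adjusted p 0.95) and no member's call changed. The labels do not say that replicate numbers pair tumours, so the numbers were not treated as pairs. Same-numbered libraries correlated at -0.09, -0.34 and -0.10 in their deviations from group means, and no library correlated best with its own number. With 3 libraries per group, subtracting the group means ties these correlations to each other, so they cannot decide whether tumours were paired. The cause of these movements was not tested. Depth limits Trib3 and Chac1 most, where counting error alone is about 30.6% and 53.5% of a library's value. Alternatives for the wider gene lists, which need mouse gene names, were not run.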
